A study of Mus musculus with 8 samples.

Results

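The RUNX family loci are the mouse genes Runx1, Runx2 and Runx3, which encode the DNA-binding RUNX proteins, Cbfb, which encodes their shared partner, and Runx1t1, which encodes the corepressor ETO. Each locus was taken as the annotated gene body and 50 kb to each side in mm10, and every ATAC-seq peak that overlapped it was counted. These 5 of 21938 protein-coding genes held 68 of 56514 peaks in mouse embryonic fibroblasts (MEFs), 30 of 36219 on day 5 of reprogramming, 30 of 35226 on day 10 and 27 of 48486 in embryonic stem cells (ESCs). ATAC-seq reads accessible chromatin from the places where a transposase can insert adapters, and a peak is a stretch with more insertions than its surroundings. The study followed chromatin while MEFs were turned into pluripotent cells by retroviruses carrying Oct4, Sox2, Klf4 and c-Myc (OSKM).

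MEFs were labelled C57BL/6J-OG2, a strain that carries GFP under Oct4 sequences, and came from embryos of mid gestation according to the methods. Day 5 and day 10 cells were such MEFs infected with OSKM and a FLAG control vector, labelled wildtype and kept in ESC medium with vitamin C. These infected cultures are mixtures, since a minority of cells in OSKM cultures reaches pluripotency, so a peak in fewer cells and a weaker peak per cell cannot be told apart. ESC replicate 1 was labelled C57Bl6J and replicate 2 C57BL/6J-OG2, and the labels place ESCs on feeder MEFs whereas the methods describe gelatin and 2i/L medium. Each group had 2 libraries that the authors combined into 1 peak list, so no spread between replicates could be computed, no test was possible, and intervals (Wilson, 95%) cover counting error only. Sequencing depth is unknown from the lists, and an absent peak shows only that none was listed.

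RUNX proteins bind DNA through the Runt domain, and CBFB, which does not touch DNA, raises their affinity. RUNX1 is needed for the emergence of blood stem cells, RUNX2 for bone formation and RUNX3 in T lymphocytes and sensory neurons, and all are read from a distal promoter (P1) and a proximal promoter (P2) that give proteins with different N termini. RUNX1T1 belongs to the ETO corepressors and is known for its fusion to RUNX1 in acute myeloid leukaemia.

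The labelled cell types were checked at start sites of marker genes. A peak within 1 kb of a start site was listed for 10 of 10 fibroblast markers in MEFs and 5 of 10 in ESCs, with 9 of 10 on both OSKM days. For pluripotency markers the numbers were 5 of 10 in MEFs, 3 on day 5, 4 on day 10 and 9 in ESCs, and Nanog had such a peak in ESCs alone. Of 6 blood markers, 3 had one in MEFs, 2 on day 5, 3 on day 10 and 3 in ESCs. Cd34 had one in every list, Tal1 in all but day 5, Csf1r in all but ESCs and Ptprc in ESCs alone. The myeloid and erythroid regulators Spi1 and Gata1 had none in any list.

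All loci but Cbfb held more peaks in MEFs than in ESCs, and Cbfb held fewer. Runx1 had 20 peaks in MEFs, 9 on day 5, 8 on day 10 and 6 in ESCs. Runx2 had 19, 8, 8 and 3 peaks in the same order. Runx3 had 9 peaks in MEFs and 1 in each of the other lists. The MEF count was thus the highest of the lists at all 3 RUNX genes, with a drop already on day 5. Cbfb had 9 peaks in MEFs, 7 on day 5, 6 on day 10 and 11 in ESCs. Runx1t1 had 11, 5, 7 and 6.

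**Figure D1:**
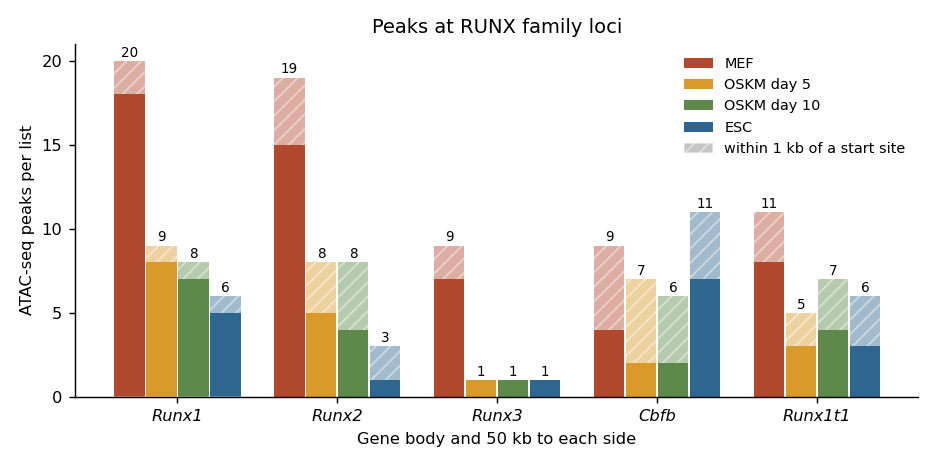
Number of ATAC-seq peaks (y axis) per list at each of the 5 loci (x axis, gene body and 50 kb to each side), with hatched parts for peaks within 1 kb of any annotated start site. Runx1 and Runx2 reach 20 and 19 peaks in MEFs against 6 and 3 in ESCs, and Cbfb reaches its highest count, 11, in ESCs.

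More peaks in MEFs than in ESCs were held by 4 of the 5 loci, and 42.2% of all protein-coding genes with windows of the same kind. Fewer peaks in MEFs than in ESCs were held by 1 of 5, Cbfb, against 35.6% of all genes, and 22.2% of genes had as many in both. All 5 had fewer peaks on day 5 than in MEFs, which 63.2% of genes had, and all 5 had fewer on day 10, which 58.9% of genes had. Windows ran from 147 kb at Cbfb to 419 kb at Runx2, and the shares of all genes were not matched for window length. The MEF list is the longest and the OSKM lists are the shortest, so part of any fall is shared with the whole lists. Set against the density of each whole list, the 5 windows together (1298 kb) held 2.53 times as many peaks per 100 kb as the genome in MEFs, 1.74 times on day 5, 1.79 times on day 10 and 1.17 times in ESCs. Runx2 and Runx3 in ESCs lay below the genome's density, at 0.403 and 0.357 times, while Cbfb in ESCs lay at 4.2 times. When each list was cut to its 35226 highest-scoring peaks, the loci held 42, 30, 30 and 20 peaks. The MEF excess at Runx1 (13 against 3 in ESCs) and Runx2 (12 against 3) was also seen at that equal size, the one at Runx3 was not (1 in each list), and Cbfb then had 8 in MEFs and 7 in ESCs.

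Most of the MEF peaks at the loci were not carried into the other lists. Of the 68 MEF peaks, 19 overlapped a peak on day 5 (27.9%, 18.7 to 39.6%), 20 on day 10 (29.4%, 19.9 to 41.1%) and 12 in ESCs (17.6%, 10.4 to 28.4%), and 44 overlapped none of the 3 lists (64.7%, 52.8 to 75.0%). Over the whole MEF list the shares were 34.9%, 36.7% and 33.3%, and 54.3% overlapped none, which lies inside the interval. The share seen again in ESCs was therefore below that of the whole list by more than counting error, and the shares on days 5 and 10 were not. Away from start sites, 3 of 52 MEF peaks at the loci were seen in ESCs (5.77%, 1.98 to 15.6%), against 15.0% of distal peaks of the whole list, which lies inside the interval. By gene, 12 of 20 MEF peaks at Runx1, 14 of 19 at Runx2, 8 of 9 at Runx3, 3 of 9 at Cbfb and 7 of 11 at Runx1t1 were in no other list. In the opposite direction, 12 of 27 ESC peaks at the loci overlapped a MEF peak (44.4%, 27.6 to 62.7%; whole list 39.1%). Between days 5 and 10, 24 of 30 peaks of each day were overlapped by the other (80%, 62.7 to 90.5%), near the 75.0% and 76.9% of the whole lists.

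Peaks of the 4 lists that lay within 400 bp of each other were joined into regions, and each region was called MEF-specific (a MEF but no ESC peak), ESC-specific (the reverse), common (both) or transient (neither, but day 5 or day 10). The loci held 91 of 101701 regions, of which 56 were MEF-specific (61.5%, 51.3 to 70.9%), 15 ESC-specific (16.5%), 12 common (13.2%) and 8 transient (8.79%). Over all regions the shares were 36.4%, 28.4%, 19.1% and 16.1%. With the higher-scoring 50% of each list, 22 of 46 regions at the loci were MEF-specific (47.8%, 34.1 to 61.9%), and the 35.9% of all such regions lies inside that interval. With lists of equal size the shares were 50.8% (38.9 to 62.5%) and 28.4%. Restricted to regions over 1 kb from any start site, 49 of 74 were MEF-specific (66.2%), against 41.2% of all such regions. MEF-specific regions made up 18 of 25 at Runx1, 17 of 24 at Runx2, 9 of 10 at Runx3, 8 of 16 at Runx1t1 and 4 of 16 at Cbfb. Cbfb was the locus with more ESC-specific regions (6) than MEF-specific ones.

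**Figure D2:**
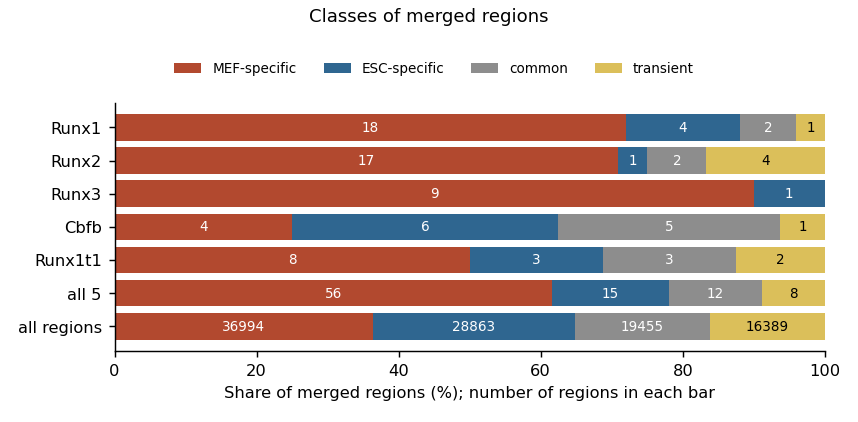
Share of merged regions in each class (x axis, percent, with the number of regions written in each bar) for each locus, the 5 loci together and all 101701 regions. MEF-specific regions fill 61.5% of the bar of the 5 loci and 36.4% of the bar of all regions.

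Per 100 kb of window, MEF-specific regions numbered 5.54 at Runx1, 4.06 at Runx2, 5.72 at Runx3, 2.72 at Cbfb and 3.20 at Runx1t1, with a median of 1.43 over all protein-coding genes. At least as high a density was found at 1.75% of genes for Runx1, 7.17% for Runx2, 1.43% for Runx3, 23.0% for Cbfb and 15.2% for Runx1t1. The density at Runx3 rests on weak peaks: its 9 MEF peaks had a median rank of 87.5% in their list, and 1 remained at equal list size. All 5 loci held at least 1 MEF-specific region (75.1% of genes) and at least 1 ESC-specific region (75.8% of genes), and 4 held a transient region (47.8% of genes). The shares of genes were again not matched for window length. Among the 91 regions, 43 had a MEF peak alone (47.3%, 37.3 to 57.4%; all regions 29.5%), 11 an ESC peak alone (12.1%, 6.89 to 20.4%; all regions 24.1%) and 9 a peak in all 4 lists (9.89%, 5.29 to 17.7%; all regions 13.8%). Peaks on days 5 and 10 and in ESCs without a MEF peak were found at 3 regions (3.30%, 1.13 to 9.25%; all regions 2.31%), 1 each at Runx1, Runx2 and Runx1t1.

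The 5 genes have 36 annotated start sites, which fall into 12 promoters when sites within 2 kb are joined. A peak lay within 1 kb of 9 promoters in MEFs, 6 on day 5, 7 on day 10 and 6 in ESCs. Counted by gene, all 5 had such a peak in MEFs, against 64.5% of protein-coding genes. On day 5 (57.2% of genes), day 10 (60%) and in ESCs (62.3%) the gene without one was Runx3. The P2 promoters were rich in CpG. Their observed over expected CpG in 1000 bp around the outermost start was 0.864 at Runx1, 0.909 at Runx2 and 0.951 at Runx3, whereas the P1 promoters had 0.310, 0.164 and 0.362. The median over protein-coding genes was 0.553.

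**Figure D3:**
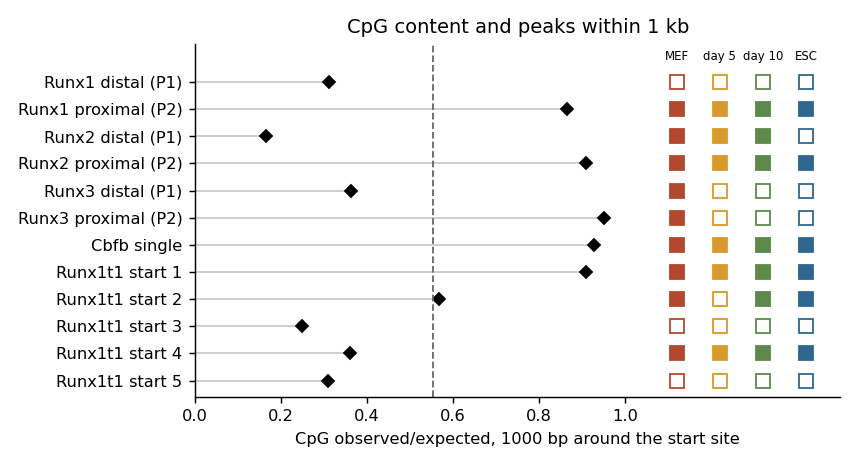
Observed over expected CpG in 1000 bp centred on the outermost start site of each promoter (x axis, black diamonds, with a dashed line at the median of protein-coding genes, 0.553), beside filled squares where a list has a peak within 1 kb and open squares where it has none. Promoters with values of 0.864 or more carry peaks in all lists except Runx3 P2, which has one in MEFs alone. The Runx3 P2 peak begins at 135153724, over 1 kb from the outermost P2 start (135152496) used for the CpG value, and is counted through other P2 starts. The fourth Runx1t1 promoter, with a value of 0.360, below the median, also carries a peak in all lists.

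Runx1 (ENSMUSG00000022952.17, chromosome 16, 92601466 to 92826149, minus strand) has P1 and P2 129 kb apart. P1, which is best known from blood cells, had no peak within 1 kb in any list. The closest MEF peak lay 1260 bp from the innermost P1 start, inside the gene (chr16:92823554-92824518, score 37), a second lay upstream (chr16:92827842-92828528), and the nearest peaks on days 5 and 10 were 46957 and 46809 bp away. P2 lay under a peak in all 4 lists, with score 82 in MEFs, 25 on day 5, 39 on day 10 and 44 in ESCs. The score is the authors' and grows with the significance of the peak, so it was compared only within a list, where rank gives the position from the top: the P2 peak ranked at 27.4% of the MEF list, 81.1% on day 5, 54.9% on day 10 and 42.7% in ESCs. The 200 bases upstream of both starts (GRCm38, minus strand, 5′ to 3′, CpG sites in capitals) show how they differ, with 1 CpG at P1 (chr16:92826150-92826349) and 22 at P2 (chr16:92697329-92697528).
Runx1 P1: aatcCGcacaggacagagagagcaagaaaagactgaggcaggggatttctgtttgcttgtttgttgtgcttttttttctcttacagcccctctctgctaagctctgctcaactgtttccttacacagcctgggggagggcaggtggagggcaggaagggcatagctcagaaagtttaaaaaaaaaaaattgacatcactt
Runx1 P2: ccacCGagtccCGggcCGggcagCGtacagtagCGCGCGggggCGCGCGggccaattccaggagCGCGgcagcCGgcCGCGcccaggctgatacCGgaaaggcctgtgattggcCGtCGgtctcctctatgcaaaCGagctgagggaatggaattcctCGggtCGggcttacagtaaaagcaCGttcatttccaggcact

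Between the MEF region 2.11 kb into Runx1 and the next one at 37.5 kb, no list held a peak. Most of the other MEF peaks lay in the introns on both sides of P2 and downstream of the gene, and a weak one (chr16:92848156-92848403, score 11) lay further upstream. The highest-scoring were at chr16:92620664-92621696 (score 127, rank 13.6%) and chr16:92684063-92684605 (score 121, rank 15.0%), both intronic and in no other list. At 4 MEF-specific regions of Runx1, MEFs and both OSKM days had peaks and ESCs had none, such as chr16:92777993-92778969 with scores 47, 63 and 43. In chr16:92645154-92646476 the MEF and day 5 peaks did not overlap each other. In chr16:92738145-92741033 the MEF peak overlapped no peak of the other lists and was joined to them by the 400 bp rule. The 6 ESC peaks had a median rank of 64.0% in their list, and the one with the highest score covered 525 bp of exon, 467 bp of them coding (chr16:92605600-92606156, score 56). The region chr16:92679830-92681052, in an intron downstream of P2, had no MEF peak. It scored 133 on day 5 (rank 5.25%), 98 on day 10 (rank 15.7%) and 22 in ESCs (rank 80.3%). The ESC peak (chr16:92680801-92681052) lies beside the OSKM peaks, which end at 92680566 and 92680617, and was joined to them because the gap is under 400 bp. The 200 bp centre of the region (chr16:92680124-92680323, plus strand) is shown because it holds 2 SOX words and the octamer word of POU factors, in capitals.
Runx1 intronic region: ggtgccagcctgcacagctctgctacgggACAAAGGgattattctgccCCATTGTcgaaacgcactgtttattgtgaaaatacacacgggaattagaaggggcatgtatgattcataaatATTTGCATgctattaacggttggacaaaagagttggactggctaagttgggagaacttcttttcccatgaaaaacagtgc

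Runx2 (ENSMUSG00000039153.16, chromosome 17, 44495987 to 44814797, minus strand) is the master gene of osteoblasts, and its P1 and P2 lie 78.1 kb apart. P1 had a peak in MEFs (score 84, rank 26.6%), on day 5 (score 39, rank 58.4%) and on day 10 (score 26, rank 75.0%, 76 bp from the nearest start). In ESCs the nearest peak was 36404 bp away. P2 lay under a peak in all 4 lists, with scores of 47, 51, 42 and 30 and ranks of 49.1%, 43.5%, 51.1% and 63.9%. The P1 peak was thus seen in every list but ESC, and the P2 peak in every list. In the 200 bp centre of the P1 region (chr17:44814777-44814976), 87.5% of the bases are marked as repeat in the reference. Upstream of P1 (chr17:44814798-44814997, minus strand) the sequence is purine-rich with no CpG and 1 match to the core RUNX word TGTGGT, here as its reverse complement in capitals.
Runx2 P1: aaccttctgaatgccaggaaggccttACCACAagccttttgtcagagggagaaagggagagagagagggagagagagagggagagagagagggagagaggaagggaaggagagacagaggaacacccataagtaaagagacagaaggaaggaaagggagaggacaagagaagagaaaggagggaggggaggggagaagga

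Runx2 carried the highest-scoring distal MEF peaks of the family. Of the 10 highest-scoring MEF peaks in the 5 loci, 5 lay over 1 kb from any start site, and all 5 of these were in no other list, as were 71.2% of distal peaks of the whole MEF list. The first, chr17:44717910-44718856 in an intron downstream of P2, scored 185 (rank 5.36%). The second, chr17:44500240-44501129, scored 167 (rank 7.22%) and lies near the 3′ end of the longest annotated transcript, past the end of the protein-coding transcripts at 44604001. That 3′ stretch held 7 MEF peaks, 1 on day 5, 2 on day 10 and 0 in ESCs. The centre of the second peak (chr17:44500585-44500784, plus strand) holds 2 AP-1 words and 1 TEAD word (capitals), words of factors known to act at fibroblast enhancers.
Runx2 3′ region: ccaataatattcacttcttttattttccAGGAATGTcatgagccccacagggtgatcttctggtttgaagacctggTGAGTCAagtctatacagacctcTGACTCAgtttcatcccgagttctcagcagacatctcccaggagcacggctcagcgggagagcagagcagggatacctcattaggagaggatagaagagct

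A region between P1 and P2 (chr17:44767158-44768052) had peaks in MEFs (score 52), on day 5 (22) and on day 10 (34) but not in ESCs. Its centre (chr17:44767505-44767704, plus strand) also holds an AP-1 word and a TEAD word, with a KLF word near its end.
Runx2 P1 to P2 region: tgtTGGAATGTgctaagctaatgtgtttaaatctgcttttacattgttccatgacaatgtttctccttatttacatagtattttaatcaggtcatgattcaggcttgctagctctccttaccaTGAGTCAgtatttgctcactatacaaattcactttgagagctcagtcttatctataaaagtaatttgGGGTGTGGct
The MEF peak that covers the start of the antisense transcript Runx2os2 (chr17:44709533-44710556) scored 140 and was seen on day 10 (score 50) but not on day 5 or in ESCs. The start of Supt3, which encodes a SAGA complex subunit and overlaps Runx2 on the opposite strand, lay under a peak in all 4 lists, with scores of 164, 65, 81 and 74. The region downstream of Runx2 at chr17:44472553-44473406 had no MEF peak and scored 122 on day 5 (rank 7.03%), 116 on day 10 (rank 10.5%) and 94 in ESCs (rank 11.9%), with the 3 peaks overlapping. Its 200 bp centre held none of the words searched. With the P2 peak and the Supt3 start, it made up all 3 ESC peaks at Runx2.

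**Figure D4:**
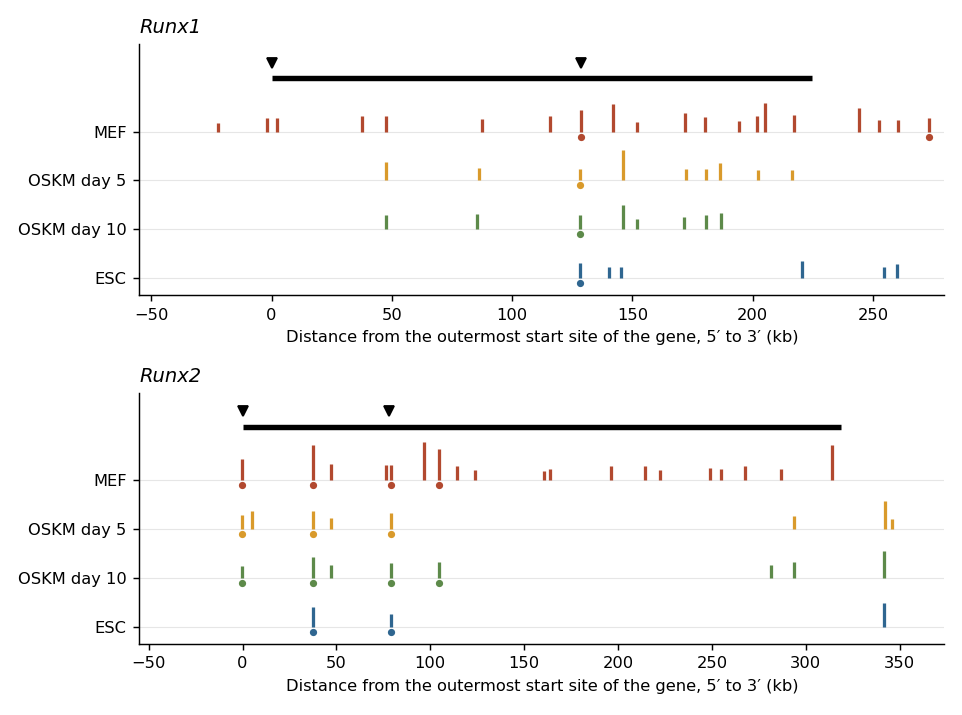
Peaks at Runx1 and Runx2 by list, placed by distance in kb from the outermost start site of the gene (x axis, 5′ to 3′), with the gene body as a black bar and promoters as triangles. The height of a line grows with the authors' score up to 200 and is comparable only within a list, and a dot marks a peak within 1 kb of any start site. The MEF rows hold 20 and 19 peaks, 14 and 19 of them in the gene bodies, and the ESC rows hold 6 and 3.

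Runx3 (ENSMUSG00000070691.10, chromosome 4, 135120652 to 135177990, plus strand) had peaks at its promoters in MEFs alone, and they were weak. At P1 the MEF peak ended 17 bp before the start site and had score 12, rank 98.3%. At P2 the nearest start was 219 bp from a MEF peak of score 21, rank 84.1%. That peak lay over 1 kb from the outermost P2 start, and both peaks rank low in their list. In the other lists the nearest peak to P2 was 51833 bp away on day 5, 51846 bp on day 10 and 12096 bp in ESCs. The highest MEF score at Runx3 was 42, at an intronic peak between P1 and P2 (chr4:135146671-135147228), and the median rank of the 9 MEF peaks was 87.5%. The ESC peak of the locus (chr4:135166532-135168210, score 41) was intronic, and 1 region downstream had peaks in MEFs and on both OSKM days, with scores of 26, 19 and 19. The intronic MEF peak is shown by its centre (chr4:135146850-135147049, plus strand), which holds 2 core RUNX words, 1 of them extended to TGTGGTTT, and 1 TEAD word, and P1 by the 200 bases before its start (chr4:135120452-135120651, plus strand), which hold 2 core RUNX words and 1 KLF word.
Runx3 P1: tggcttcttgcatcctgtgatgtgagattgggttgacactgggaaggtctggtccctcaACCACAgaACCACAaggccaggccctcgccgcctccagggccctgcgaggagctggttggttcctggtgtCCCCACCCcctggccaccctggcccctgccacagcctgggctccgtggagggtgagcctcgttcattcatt
Runx3 intronic region: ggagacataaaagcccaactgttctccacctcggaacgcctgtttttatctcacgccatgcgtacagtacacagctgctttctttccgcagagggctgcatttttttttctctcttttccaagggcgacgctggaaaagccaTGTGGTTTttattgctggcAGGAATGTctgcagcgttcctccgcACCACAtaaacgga

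Cbfb (ENSMUSG00000031885.14, chromosome 8, 105170674 to 105217989, plus strand) has one promoter with CpG observed over expected of 0.928, and all 7 of its start sites lay under a peak in every list. That peak scored 107 in MEFs, 50 on day 5, 67 on day 10 and 83 in ESCs, with ranks of 18.7%, 44.5%, 29.7% and 15.5%. Within the gene body, the intronic MEF peak chr8:105186523-105187108 was in no other list and scored 148 (rank 9.83%). The distal region chr8:105152695-105153567 upstream of the gene had a peak in all 4 lists, with ranks of 47.3%, 74.1%, 20.6% and 93.4%. The window also takes in parts of 5 other protein-coding genes. The start of B3gnt9, a glycosyltransferase gene, had the highest-scoring MEF peak of all 5 loci (264, rank 1.30%) and lay under a peak on day 5 (107), day 10 (129) and in ESCs (64). At Tradd, which encodes an adaptor of the TNF receptor, the region chr8:105259526-105259936 had peaks on day 5 (score 41) and in ESCs (score 61), and a second one at starts of Tradd and Fbxl8 had peaks in MEFs (52), on day 5 (24) and on day 10 (54). Leaving out the peaks at start sites, Cbfb had 4 distal peaks in MEFs, 2 on day 5, 2 on day 10 and 7 in ESCs. The highest-scoring ESC peak there, chr8:105233244-105233889 (score 113), was downstream of Cbfb and in no other list, and it overlaps the gene D230025D16Rik. The ESC peaks chr8:105138248-105138516 and chr8:105142349-105142637 overlap Ces4a. With 10 kb flanks the Cbfb window held 5 peaks in MEFs and 3 in ESCs, so its higher ESC count rests on the outer parts of the window.

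Runx1t1 (ENSMUSG00000006586.15, chromosome 4, 13743436 to 13893649, plus strand) has 5 promoters. The first, CpG-rich one lay under a peak in all 4 lists, with scores of 53, 78, 52 and 88. The second had a peak in MEFs (27), on day 10 (16, 70 bp away) and in ESCs (78) but none within 1 kb on day 5. The fourth had a peak within 101 bp in all 4 lists, with scores of 86, 22, 26 and 41, and the other two had none. In ESCs the peaks at the first and second promoters ranked at 13.7% and 17.5% of the list, and in MEFs at 44.0% and 73.9%. An intronic region (chr4:13773633-13774838) had no MEF peak and scored 30 on day 5, 24 on day 10 and 80 in ESCs. A region downstream of the gene (chr4:13908214-13910933) scored 45 in MEFs, 78 on day 5 and 69 on day 10, with no peak in ESCs.

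**Figure D5:**
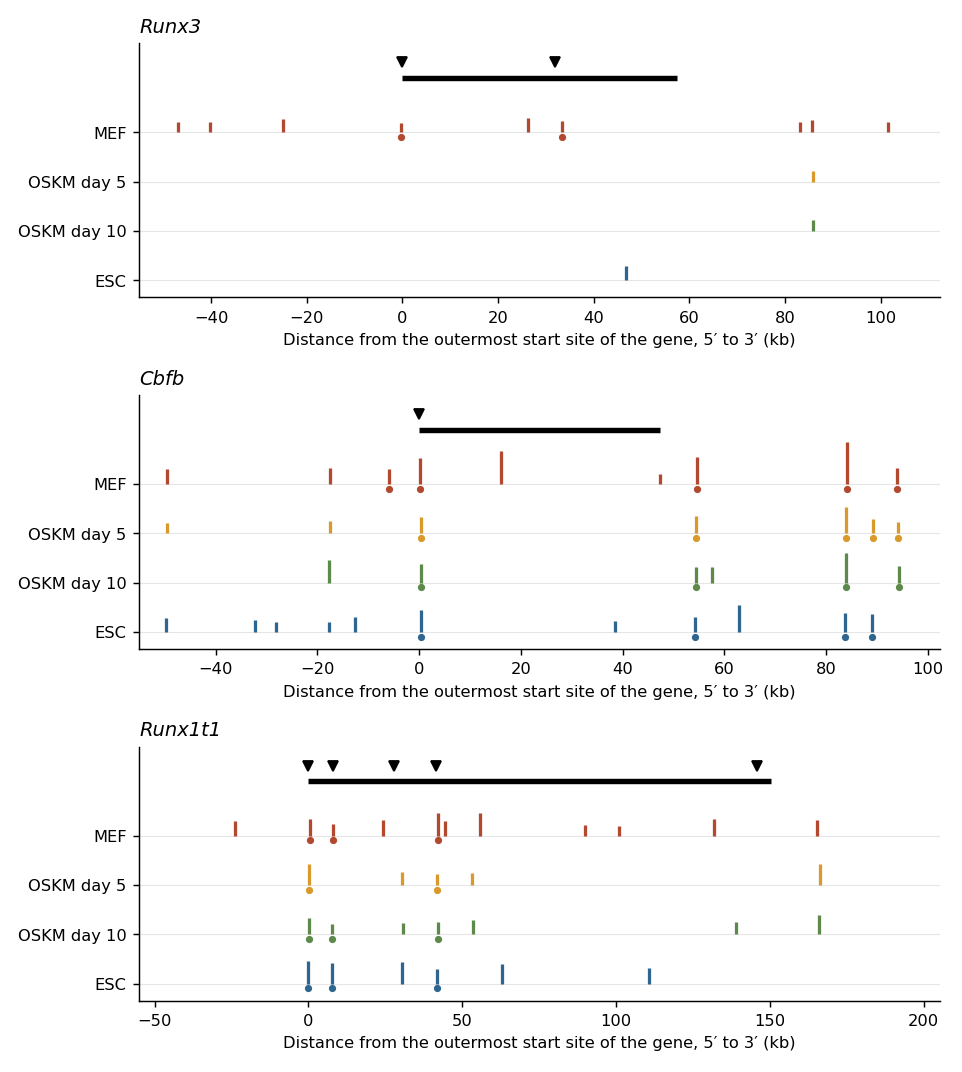
Peaks at Runx3, Cbfb and Runx1t1 by list, placed by distance in kb from the outermost start site (x axis, 5′ to 3′), with the gene body as a black bar, promoters as triangles and a dot under peaks within 1 kb of any start site. Line height grows with the authors' score up to 200 and is comparable only within a list. Runx3 shows 9 low MEF peaks and 1 peak in each other list, and Cbfb shows 11 ESC peaks.

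DNA words were counted on both strands in the central 200 bp of each region, and the same count over all 101701 regions is given beside each. The RUNX words TGTGGTTA or TGTGGTTT were found in 3 of 91 windows (3.30%, 1.13 to 9.25%; all regions 3.11%), all MEF-specific, 2 at Runx1 and 1 at Runx3. The core TGTGGT, which the longer words contain, was found in 14.3% against 15.3%. The RUNX loci thus did not differ from other regions in these words by more than counting error. The AP-1 words TGAGTCA or TGACTCA were found in 10 of the 56 MEF-specific windows (17.9%, 10.0 to 29.8%), against 23.0% of all MEF-specific regions. Of these 10, 5 were at Runx2, where 5 of 17 MEF-specific windows held one (29.4%, 13.3 to 53.1%), and at Runx1 1 of 18 did. A TEAD word (ACATTCCA or ACATTCCT or GCATTCCA or GCATTCCT) was found in 7 of the 56 (12.5%, 6.19 to 23.6%), against 8.53% of all MEF-specific regions. By locus, TEAD words were in 4 of 17 at Runx2 (23.5%, 9.56 to 47.3%) and 1 of 18 at Runx1. The KLF words CCACACCC or CCACGCCC or CCCCACCC or CCCCGCCC were found in 10 of 56 MEF-specific windows (17.9%, 10.0 to 29.8%). The share over all MEF-specific regions, 7.03%, lies below that interval. Over all 91 windows KLF words were found in 15 (16.5%, 10.3 to 25.4%), and the 11.1% of all regions lies inside that interval. In several windows, such as that of the Runx1 peak with score 127, the KLF words overlap one another, but each window counts once in the shares. The SOX words CCATTGT or CCTTTGT were found in 8 of 91 windows (8.79%, against 10.1%) and the octamer ATGCAAAT in 1 (1.10%, against 2.19%), the Runx1 window printed above. Upstream of start sites, the core RUNX word was found within 200 bases at 10.5% of protein-coding genes and a KLF word at 29.8%. At the loci the core word was found at Runx2 P1, Runx3 P1 and the fifth Runx1t1 promoter. KLF words were found at Runx2 P2, Runx3 P1 and Cbfb, and the remaining promoters of the loci held neither.

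Genes that work with or under RUNX proteins were counted the same way. Of 18 partners and co-regulators, 10 had more peaks in MEFs than in ESCs (55.6%), 6 fewer and 2 as many, with a median difference of 1 peak (0 over all genes). Smad3, a TGF-beta effector that binds RUNX proteins, had 16, 4, 9 and 4 peaks in MEFs, on day 5, on day 10 and in ESCs. Ets1, which binds DNA with RUNX1, had 14, 6, 7 and 3, and the kinase gene Hipk2 had 13, 7, 10 and 7. Yap1, a Hippo pathway coactivator, went the other way with 9, 7, 6 and 17. Of 12 skeletal targets of RUNX2, 5 had more in MEFs (41.7%, against 42.2% of all genes), 3 fewer and 4 as many. Col1a1, a collagen gene, had 10, 7, 7 and 3 and the homeobox gene Msx2 had 7, 0, 1 and 3. Of 12 blood targets, 5 had more (41.7%), 4 fewer and 3 as many, among them the receptor gene Csf1r with 8, 3, 2 and 2 and Myb with 5, 3, 6 and 8. The shares of both target lists were thus near those of all genes. Windows can also take in peaks of neighbouring genes, which were not set apart in these lists. The fibroblast marker Pdgfrb, on chromosome 18 like Csf1r, had 8, 3, 2 and 3.

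The genes with peak counts most like Runx1, Runx2, Cbfb and Runx1t1 were found by the summed absolute difference over the 4 lists. Runx1 was closest to Mical2 (20, 8, 10 and 6 peaks, summed difference 3) and Runx2 to Cacna2d3 (19, 8, 9 and 3, summed difference 1). Hook3 had the same counts as Cbfb, and Larp1, Mms19 and Slc7a5 the same as Runx1t1. These likenesses rest on 4 counts each and on windows of different length.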

How the data were processed

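The authors deposited 1 peak list per group for 8 ATAC-seq libraries of 4 groups, in the broad-peak layout without a header. Per the labels and methods, reads were mapped to mm10 with bowtie2 (version 2.2.0 in the submitters' processing notes), reads of low mapping quality and mitochondrial reads were removed, and uniquely mapped reads were kept. The labels and the methods state different quality thresholds and bowtie2 versions. The peak caller is not given in the sources used here, nor is a shift for the transposase. The deposited columns hold, for every peak, a score, the −log10 q-value and an enrichment given as a fold ratio, and a −log10 p-value that was not used. Peak numbers in the names run past the listed peaks (75.5 to 84.1% of the numbers remain), so each list looks like replicate 1 peaks cut to their overlap with replicate 2, and score and fold then belong to the whole replicate 1 peak.

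Peaks were counted over GENCODE mouse release 21 gene bodies and 50 kb to each side, and start sites were those of all transcripts. Overlap needed 1 bp. Regions joined peaks within 400 bp (101701 regions). Sequence came from RefSeq GRCm38.p6. Python 3.11.15, pysam 0.24.0 and scipy 1.17.1 were used, and counting code was tested on simulated lists. Alternatives were other flanks, score thresholds, list sizes, merging distances, start distances, overlaps and motif windows. The 5 genes and the gene lists were chosen with earlier results of these data known. Within a gene list, the named genes are those with the largest difference between MEF and ESC counts, and other positions were named after their values were seen. No other per-sample column was left out (0 columns).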

Additional observations from a re-analysis of the deposited data

How the results depend on the processing

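No paired analysis was possible because there is 1 list for both libraries of a group, and for the same reason no library could be left out. MEFs kept more peaks than ESCs in the 5 loci under all alternatives run, with differences of 12 (higher-scoring 50% of each list) and 22 (equal list size) where they moved most. The excess over day 5 fell to 17 and 12, and that over day 10 to 14 and 12, under the same settings. With the higher-scoring 50%, the lists held 29, 12, 15 and 17 peaks, and MEFs 42 at equal list size. With 10 kb flanks ESCs held 16. The direction of MEF against ESC counts reversed at Cbfb (2 with 10 kb flanks, 1 at equal list size) and at Runx3 and Runx1t1 (-1 each with the higher-scoring 50%). MEF-specific regions numbered 22 (47.8%) with the higher-scoring 50% and 33 (50.8%) at equal list size, ESC-specific ones 8 with 10 kb flanks, and common ones 19 with 100 kb flanks and 7 with the higher-scoring 50%. The transient share was 15.2% with the higher-scoring 50% (all regions 16.6%) and 18.5% at equal list size (all regions 25.9%), against 8.79% as reported. Start sites with a peak numbered 18 in MEFs and 15 at day 10 when the peak had to cover the site (29 and 24 within 1 kb), 19 of 24 in MEFs for protein-coding transcripts, and 14 at day 5 and 8 at day 10 with the higher-scoring 50%. When 50% of both peaks had to overlap, the share common to days 5 and 10 was 60% in place of 80%, in both directions. A RUNX word was found in 17.6% of the regions when the whole region was searched, and in 14.3% of windows for TGTGGT (all regions 15.3%). The 17.6% is given without a share over all regions, so it was not compared with one. As counts, the other 56 values that answer a comparison stayed within 1.5 times the reported count, or for shares within its interval. Depth is unknown, so a longer list may come from deeper libraries.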

Other observations

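The centre of the MEF peak 1260 bp from the innermost start of Runx1 P1 held 8 matches to TGTGGT, the most of the 91 windows, and 86.5% of its bases are marked as repeat in the reference. Elsewhere in the loci no window held more than 2. Among the 8 transient regions, 4 lay at Runx2, 2 at Runx1t1 and 1 each at Runx1 and Cbfb, and 2 of the 8 windows held SOX words (25%, 7.15 to 59.1%; 15.4% of all transient regions). These were at chr8:105228001-105228438 near Cbfb (day 10, score 50) and chr4:13882329-13882617 in Runx1t1 (day 10, score 30), each with 2 matches.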
